A study of Sus scrofa with 26 samples.

Results

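Interferon-stimulated genes were followed in the subcutaneous adipose tissue (SCAT) of 26 growing castrated male pigs, hybridised on 26 one-colour microarrays with 1 pig per array. The set held 9 genes, *MX1*, *MX2*, *ISG15*, *OAS1*, *OAS2*, *RSAD2*, *IRF7*, *IFIT1* and *IFIT3*, chosen by name among the 11771 genes named on the array, and they were read by 31 of its 60305 probes. The pigs were Creole, Large White (LW) or the cross of both (F1), and slaughter took place either at 24 °C, the thermoneutral condition (TN), or during heat stress (HS). Their numbers were 3 Creole TN, 5 Creole HS, 4 F1 TN, 5 F1 HS, 4 LW TN and 5 LW HS pigs. The sample labels give 30 °C for HS whereas the growth protocol gives 32 °C, with 5 days of exposure. TN pigs were slaughtered before the temperature of the room was raised and HS pigs afterwards, so temperature, slaughter day and age cannot be told apart. Pigs were littermates in blocks and shared pens according to the study's methods, but the labels link no pig to a litter or a pen, so each pig was treated as independent.

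Interferons are secreted cytokines, released when a cell senses viral or other foreign nucleic acids. They bind receptors on the same and on neighbouring cells, and signalling from the receptors switches on a large set of genes together. Among the 9 genes, *MX1* and *MX2* encode GTPases that block viral replication, *OAS1* and *OAS2* encode enzymes that activate RNase L when they meet double-stranded RNA, *ISG15* encodes a ubiquitin-like modifier, *RSAD2* encodes viperin, *IFIT1* and *IFIT3* encode proteins that bind foreign RNA, and *IRF7* encodes the transcription factor that amplifies interferon production. Adipocytes and the macrophages of adipose tissue both respond to interferons.

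The level of a gene is given as the log2 of the quantile-normalised median fluorescence of a probe, and each gene was represented by its probe with the highest mean level. All 31 probes passed the filter on dim probes, as did 44703 probes of the array, and all 9 representative probes were well above background on 26 of 26 arrays. Each probe is 60 bases long. For *MX1* and *OAS1*, for which single pigs stood apart from the others, probes from separate places of the transcript are shown here, because they gave the same picture of those pigs. They are followed by both probes of *ISG15*, in which capitals mark the run of 43 bases that the probes share, so that they are no independent readings of the gene.
MX1, base 1160 of the transcript: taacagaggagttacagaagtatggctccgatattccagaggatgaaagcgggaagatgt
MX1, base 1934 of the transcript: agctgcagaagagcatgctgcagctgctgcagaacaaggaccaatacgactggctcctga
OAS1, base 676 of the transcript: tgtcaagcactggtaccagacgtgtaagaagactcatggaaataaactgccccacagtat
OAS1, base 871 of the transcript: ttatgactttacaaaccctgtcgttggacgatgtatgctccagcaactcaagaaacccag
ISG15, representative probe: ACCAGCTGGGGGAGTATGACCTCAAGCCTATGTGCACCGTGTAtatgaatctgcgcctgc
ISG15, other probe: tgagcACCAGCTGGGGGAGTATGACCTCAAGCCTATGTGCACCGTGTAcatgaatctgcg

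The arrays had 41314 to 46185 probes well above background and 0 saturated probes. Array quality weights, used below as an alternative, ran from 0.54 for the third Creole HS pig to 1.33 for the third Creole TN pig. They lay on 5 slides, each of which held TN and HS pigs. Spearman's rho between any 2 arrays was 0.96 to 0.987, and no 2 arrays were identical. The 7 adipocyte markers, among them *ADIPOQ* and *FABP4*, were well above background on 26 of 26 arrays. The tissue was a mixture of cells, so fewer cells of a type and less RNA per cell cannot be told apart.

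The first comparison asked whether heat stress changed the level of these genes. None of the 9 genes was differentially expressed between HS and TN pigs (limma, adjusted p below 0.05), against 12.2% of all tested probes called in this comparison. An unadjusted p under 0.05 was found for 1 of the 9 genes and for 12032 of the 44703 probes. Adjusted for breed, the differences in log2 level ran from -0.53 for *MX2* to 0.23 for *RSAD2*, with a median of 0.05. The median over all 10131 genes tested was -0.00465. None of the 31 probes was called, 22 being higher and 9 lower in HS.

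*MX2* had the largest difference. The 11 TN pigs averaged 9.99 ± 0.72 (SD), from 8.71 to 10.78, and the 15 HS pigs averaged 9.44 ± 0.53 (SD), from 8.40 to 10.21. The HS minus TN difference was -0.53 (SE 0.206, 95% interval -0.96 to -0.11, adjusted p = 0.0912), and 3 of 15 HS pigs lay above the TN mean. In the F1 pigs the TN levels were 10.54, 10.78, 10.70 and 10.52 and the HS levels were 8.72, 9.80, 9.93, 10.21 and 9.72. By this probe, every F1 TN pig was thus above every F1 HS pig, and above each of the other 22 pigs, of which the highest was a Creole TN pig at 10.43. The share of all probes that separate the F1 pigs in this way was not counted. The difference within F1 was -0.96 (SE 0.345, adjusted p = 0.174), in a comparison in which 0.421% of all probes were called. The Creole TN levels of *MX2* were 10.43, 9.18 and 9.04 and the Creole HS levels 9.09, 9.78, 8.40, 9.22 and 9.72. The LW TN levels were 9.75, 10.10, 10.20 and 8.71 and the LW HS levels 9.23, 9.46, 10.01, 8.68 and 9.59. In both parental breeds TN and HS pigs overlapped, with differences of -0.31 in Creole (SE 0.376) and -0.30 in LW (SE 0.345). The interaction between breed and temperature was not called for *MX2* (adjusted p = 0.903). The other *MX2* probes gave smaller differences between HS and TN, namely -0.25 (adjusted p = 0.291) and -0.19 (adjusted p = 0.116). Within F1 these probes gave -0.425 (adjusted p = 0.423) and -0.293 (adjusted p = 0.272). Within slides, HS minus TN was -1.34, -1.12, -0.34, -0.53 and 0.27. These values are not adjusted for breed, and the slide with -1.34 held 1 TN pig, an F1. Without the fourth LW TN pig, which had the lowest level of its group, the difference was -0.65 and passed the threshold (adjusted p = 0.0283).

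*MX1* averaged 12.75 ± 0.90 (SD) over the 11 TN pigs, from 10.44 to 13.67, and 12.87 ± 1.20 (SD) over the 15 HS pigs, from 10.69 to 14.97. The difference was 0.13 (SE 0.403, 95% interval -0.70 to 0.96, adjusted p = 0.875). This interval includes both a decrease and an increase of more than 1.5-fold, as spread between pigs was wide. The pair of *OAS* genes did not pass the test either. The HS minus TN difference was -0.04 for *OAS1* (SE 0.391, interval -0.84 to 0.77) and 0.21 for *OAS2* (SE 0.192, interval -0.18 to 0.61).

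*ISG15* averaged 13.13 ± 0.39 (SD) over the TN pigs, from 12.67 to 13.80, and 13.28 ± 0.84 (SD) over the HS pigs, from 12.38 to 15.23. These ranges overlapped, and the difference was 0.17 (SE 0.252, interval -0.35 to 0.69, adjusted p = 0.71). *RSAD2* differed by 0.23 (SE 0.251, interval -0.28 to 0.75, adjusted p = 0.592). The narrowest intervals were those of *IFIT1*, with a difference of 0.00 (interval -0.26 to 0.26), of *IRF7*, with -0.02 (interval -0.31 to 0.27), and of *IFIT3*, with 0.05 (interval -0.27 to 0.37). For these 3 genes, by their representative probes, a change of the mean by 0.5 on the log2 scale in either direction lay outside the interval. The other *IRF7* probes differed by -0.045 (adjusted p = 0.866) and -0.171 (adjusted p = 0.0819). The latter probe was dim (mean level 5.88) and had r = 0.38 with the representative one. Within each breed, none of the 9 genes was called between HS and TN. The smallest adjusted p was 0.74 in Creole, 0.174 in F1 and 0.716 in LW, where 0.0716%, 0.421% and 1.5% of all probes were called. The interaction was called for none of the 9 genes either (smallest adjusted p = 0.903), against 0.00224% of all probes. For it, 0 of 9 genes and 2336 of the 44703 probes had an unadjusted p under 0.05.

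**Figure D1:**
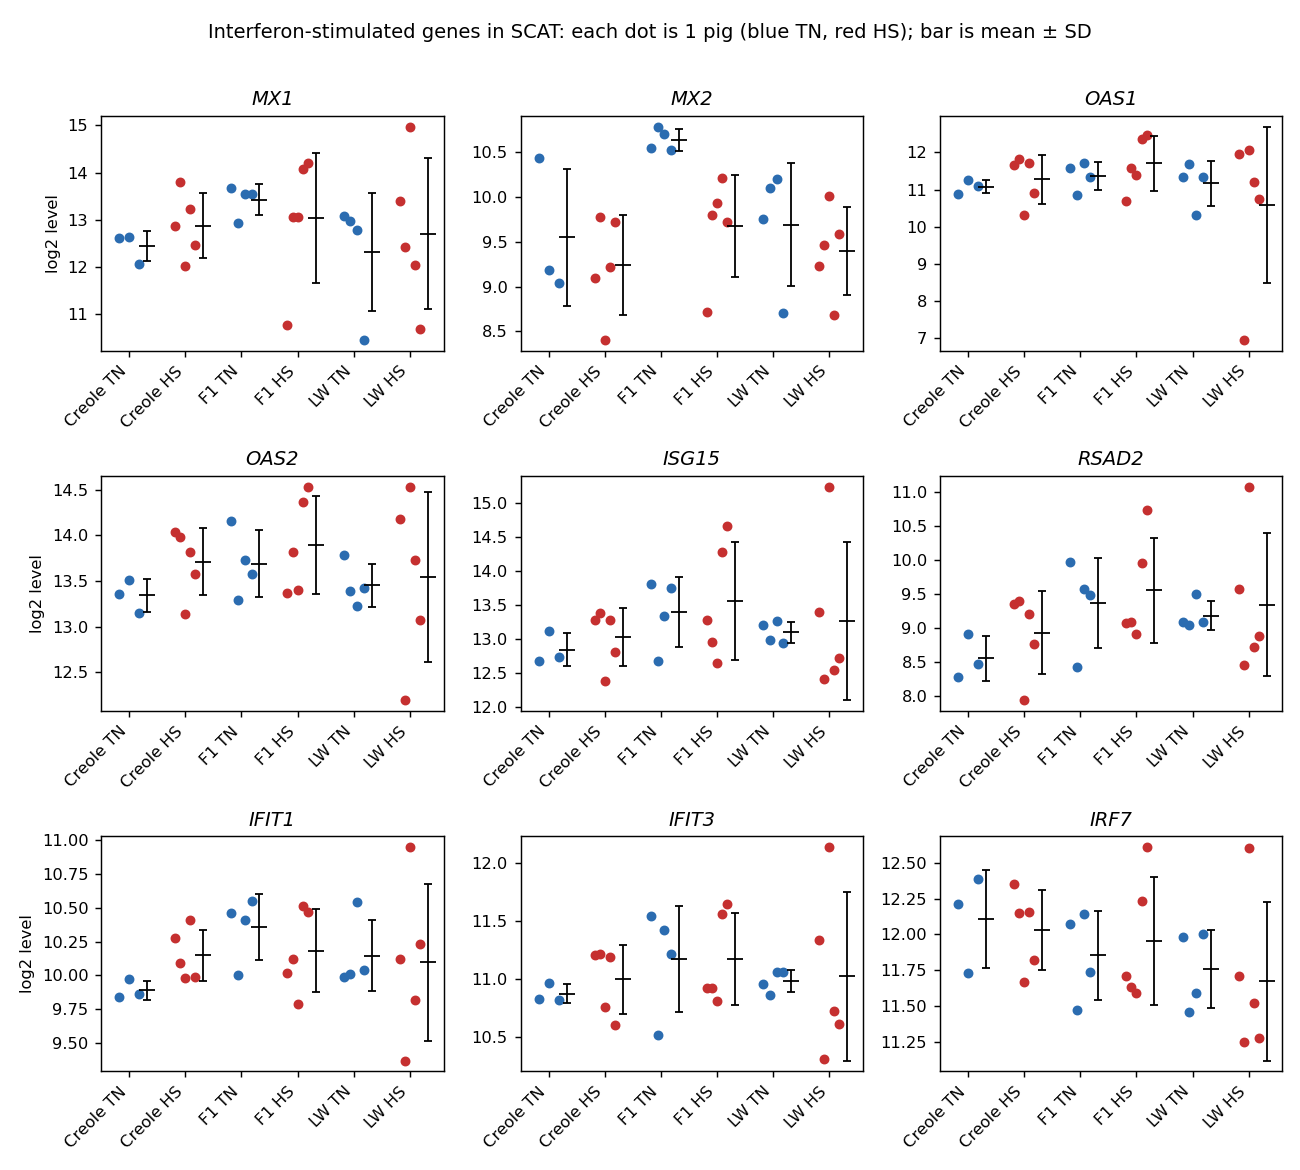
Log2 level of the representative probe of each of the 9 genes in the 6 groups, with 1 dot per pig (blue for TN, red for HS) and the mean ± SD as a bar beside the dots. The LW HS group has the largest SD of the 6 groups for each gene except *MX2*, whereas the 4 F1 TN dots of *MX2* sit between 10.52 and 10.78, above all other pigs.

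The pigs of HS groups differed more from each other than those of TN groups. The SD between pigs of the same group was larger in HS for 8 of the 9 genes, *MX2* being the exception. The HS over TN ratio of this SD was 2.48 for *ISG15* (0.87 against 0.35), 3.02 for *OAS1* (1.35 against 0.44) and 2.33 for *OAS2* (0.65 against 0.28). The median ratio was 1.76 over the 9 genes and 1.12 over all 10131 genes, of which 62.4% had the larger SD in HS. Without the second and the third LW HS pig, the median ratio over the 9 genes was 1.41, *OAS1* came to 1.52, and 8 of 9 genes still had the larger SD in HS. These ratios are a description, as no test of the spread was made.

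The second comparison concerned the breeds. None of the 9 genes was called for any breed difference (smallest adjusted p = 0.107, for *MX2*), where 11.3% of all probes were called. An unadjusted p under 0.05 was found there for 1 of 9 genes and for 11907 of the 44703 probes. None of the 9 genes was called between the parental breeds either, where 14.3% of probes were called for LW minus Creole. In that contrast 0 of 9 genes and 12985 of the 44703 probes had an unadjusted p under 0.05. *IRF7* came nearest, with 12.06 ± 0.28 (SD, n = 8) in Creole, 11.91 ± 0.37 (SD, n = 9) in F1 and 11.71 ± 0.43 (SD, n = 9) in LW. The LW minus Creole difference of *IRF7* was -0.35 (SE 0.173, adjusted p = 0.178). It passed the threshold when the third LW HS pig, which had the highest *IRF7* level of its breed, was left out (-0.47, adjusted p = 0.0454). The other *IRF7* probes gave -0.45 (adjusted p = 0.065) and -0.23 (adjusted p = 0.0504) over all pigs. *RSAD2* was at 8.79 ± 0.53 (SD, n = 8) in Creole, 9.47 ± 0.69 (SD, n = 9) in F1 and 9.27 ± 0.76 (SD, n = 9) in LW, with an LW minus Creole difference of 0.50 (SE 0.307, adjusted p = 0.291). For *MX2*, leaving out the first F1 HS pig brought the test over the 3 breeds past the threshold (adjusted p = 0.0301).

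In the F1 pigs the estimate was above the mean of the parental breeds for each of the 9 genes, from 0.02 for *IRF7* to 0.64 for *MX2*, and for 31 of 31 probes. None passed the test, and only 0.00671% of all probes were called in this comparison. An unadjusted p under 0.05 was found for 1 of 9 genes and for 3884 of the 44703 probes. For *MX2* the difference was 0.64 (SE 0.214, 95% interval 0.20 to 1.08, adjusted p = 0.346). The other *MX2* probes gave smaller differences, 0.374 (adjusted p = 0.478) and 0.251 (adjusted p = 0.313). *MX1* differed by 0.59 (SE 0.418, adjusted p = 0.719), *RSAD2* by 0.45 (SE 0.26, adjusted p = 0.648) and *ISG15* by 0.42 (SE 0.262, adjusted p = 0.677). The 9 estimates come from the same pigs, in which the genes moved together as described further on, so that their common sign is not 9 separate observations.

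**Figure D2:**
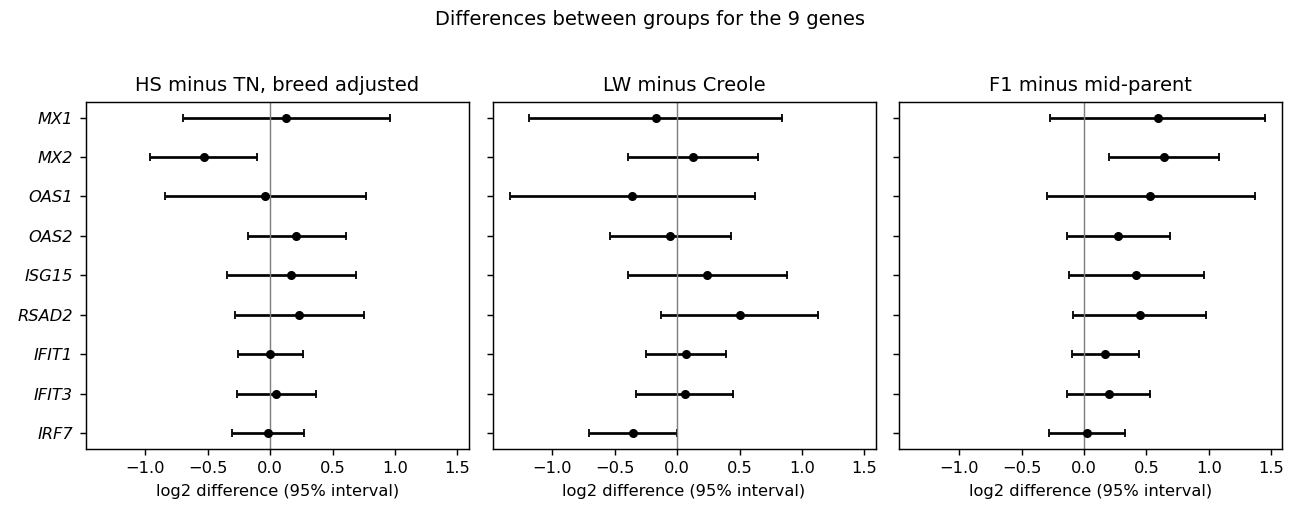
Difference in log2 level for each of the 9 genes, with its 95% interval, for HS minus TN adjusted for breed, for LW minus Creole and for F1 minus the mean of both parental breeds. By its representative probe, the interval of *MX2* excludes 0 in the HS minus TN and F1 panels, and no difference passed the adjusted threshold over all probes.

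Single pigs of the same group differed strongly. The SD between pigs of the same group was 1.119 for *MX1*, larger than that of 99.5% of the 10131 genes, and 1.079 for *OAS1*, larger than that of 99.4%. It was 0.712 for *ISG15* and 0.705 for *RSAD2*, and the lowest was that of *IFIT1* with 0.337, which still exceeded 87.4% of genes. The median over all genes was 0.179.

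The third LW HS pig had the highest *MX1* (14.97), *ISG15* (15.23), *RSAD2* (11.07), *IFIT1* (10.95) and *IFIT3* (12.14) levels of all 26 pigs. In that pig the 9 genes were all above the LW HS mean, by 2.27 for *MX1*, 1.97 for *ISG15*, 1.73 for *RSAD2*, 1.49 for *OAS1* and 0.62 for *MX2*. It ranked among the top 3 pigs for 8 of the 9 genes. The fifth F1 HS pig was next, with the highest *OAS1* level (12.48) and the highest *IRF7* level (12.61), and it ranked among the top 3 for 7 genes. The fourth F1 HS pig followed, with 5 genes among the top 3. In these 3 pigs all 9 genes were above the mean of their group. At the other end, the first F1 HS pig and the third Creole HS pig were below their group mean for all 9 genes. The array of this Creole pig had the lowest quality weight (0.54). The LW HS group held both the pig with the highest and the pig with the lowest mean over the 9 genes, with deviations from the group mean of 1.33 and -0.98.

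**Figure D3:**
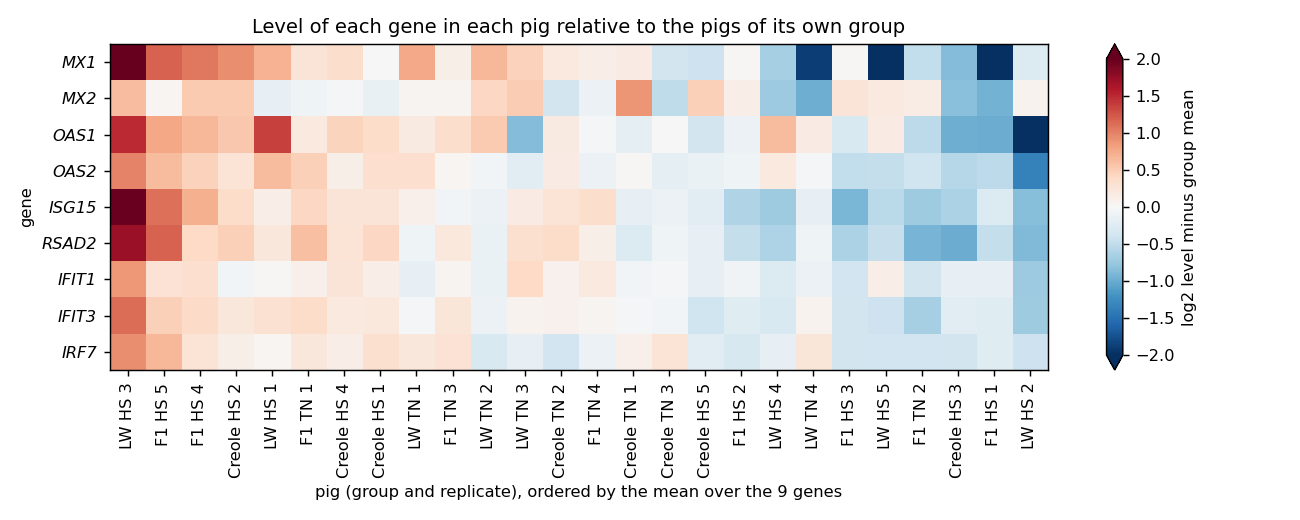
Log2 level of each of the 9 genes minus the mean of the pig's own group, for all 26 pigs ordered from the highest to the lowest mean over the genes; the colour scale is limited to -2 and 2. The 9 genes are all above the group mean in the third LW HS, the fifth F1 HS and the fourth F1 HS pig and all below it in the third Creole HS and the first F1 HS pig, and the other columns are mixed.

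For 2 genes, single pigs fell far outside the range of the others. *MX1* levels were 12.61, 12.63 and 12.07 in Creole TN pigs and 12.87, 13.80, 12.02, 13.22 and 12.46 in Creole HS pigs. They were 13.67, 12.93, 13.54 and 13.55 in F1 TN pigs and 10.76, 13.05, 13.05, 14.08 and 14.21 in F1 HS pigs. In LW they were 13.07, 12.97, 12.78 and 10.44 under TN and 13.39, 12.43, 14.97, 12.03 and 10.69 under HS. Thus 3 pigs, 1 F1 HS, 1 LW TN and 1 LW HS, lay between 10.44 and 10.76, and the next level was 12.02, a gap of 1.26. No Creole pig was among them. The same 3 pigs were the lowest for all 7 *MX1* probes, with gaps from 0.54 to 1.26 below the next pig. The probe at base 1160 of the transcript, shown above, had 5.80 to 6.08 in these pigs and at least 6.62 in the others. The probe at base 1934 had 6.36 to 6.44 and at least 7.03. The other genes were not low to the same extent in these pigs. In the LW TN pig with 10.44, the deviation from the group mean was -1.88 for *MX1* and -0.98 for *MX2*, whereas it was -0.16 for *ISG15* and 0.17 for *OAS1*. In the LW HS pig with 10.69, it was -2.01 for *MX1*, -0.54 for *ISG15* and 0.19 for *MX2*. In the F1 HS pig it was -2.27 for *MX1*, -0.95 for *MX2* and -0.28 for *ISG15*, and *OAS1* was at 10.70, the lowest level of its group.

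*OAS1* behaved otherwise. In the second LW HS pig it was at 6.93, and in the remaining 25 pigs it lay between 10.30 and 12.48, so that the gap to the next pig was 3.37. The second *OAS1* probe had 6.34 in this pig and at least 9.19 in the others, a gap of 2.85. The probes match bases 676 and 871 of the transcript, and in both this pig remained well above background. *OAS2*, which is the neighbour of *OAS1* in the RefSeq annotation of Sscrofa11.1, was also lowest in this pig, at 12.19, with 13.07 in the next pig. Here the deviation from the LW HS mean was -3.65 for *OAS1* and -1.35 for *OAS2*, while it was -0.88 for *RSAD2*, -0.85 for *ISG15* and -0.27 for *MX1*. The LW TN levels of *OAS1* were 11.35, 11.69, 10.30 and 11.34 and the other LW HS levels were 11.95, 12.07, 11.21 and 10.74.

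**Figure D4:**
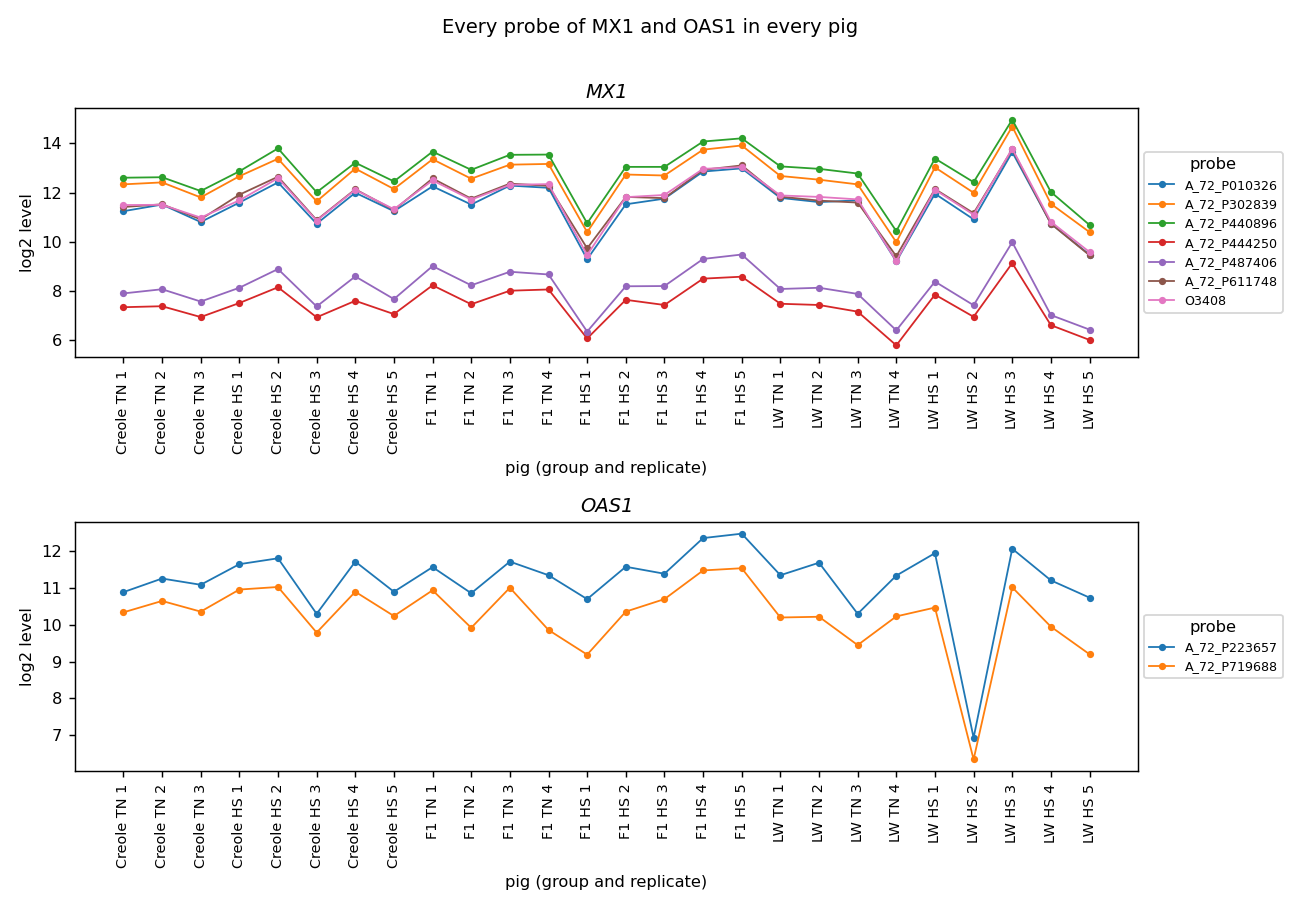
Log2 level of the 7 probes of *MX1* and of the 2 probes of *OAS1* in each of the 26 pigs, with 1 line per probe and the pigs ordered by group. All *MX1* lines dip in the first F1 HS, the fourth LW TN and the fifth LW HS pig, and both *OAS1* lines dip in the second LW HS pig, to 6.93 and 6.34.

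The covariation of the genes across pigs was then measured after removing the group means. Pearson's r was above 0 for all 36 pairs, from 0.12 to 0.96, with a median of 0.68, and the median Spearman's rho was 0.71. Of the 36 pairs, 29 passed a two-sided permutation test (100000 permutations) adjusted over the pairs, for r as well as for rho. The strongest pair was *ISG15* and *RSAD2*, with r = 0.96 and rho = 0.96 (adjusted permutation p = 2.6e-05 for r). *RSAD2* and *IFIT3* had r = 0.94, *ISG15* and *IFIT3* r = 0.93, and the neighbouring genes *OAS1* and *OAS2* r = 0.89. When the 2 pigs farthest from the median of the first gene were left out, the pairs ran from 0.06 to 0.93 with a median of 0.56. *ISG15* and *RSAD2* then had r = 0.93, whereas *OAS1* and *IFIT1* went from 0.64 to 0.27, so that this r rested in large part on those pigs. The rho of *OAS1* and *IFIT1* over all 26 pigs was 0.52 (adjusted permutation p = 0.0093). *MX1* and *OAS1* went from 0.42 to 0.26, but had rho = 0.64 over all 26 pigs (adjusted permutation p = 0.00077). Within the slide of 6 arrays the median r was 0.84, and within the slide of 7 arrays it was 0.72, all 36 pairs being above 0 in both. The other slides held fewer than 6 arrays. Removing slide means besides group means gave a median of 0.72.

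*MX2* had the lowest correlations by its representative probe. Its r with them was 0.62 for *MX1*, next to which it lies in the annotation, and 0.12 to 0.31 for the remaining 7, and only the pair with *MX1* passed the test (adjusted permutation p = 0.001). With the mean of all probes of each gene, the r of *MX2* with the same 7 genes was 0.24 to 0.48, among them 0.48 with *ISG15* and 0.26 with *OAS1*. Then 32 of the 36 pairs passed, so that the size of this contrast depended on the probe chosen. These 7 values were still the lowest, as the lowest r of a pair without *MX2* was 0.51, for *MX1* and *OAS1*. Each of the other 8 genes passed with at least 7 partners. The correlations of *MX1* were affected by the 3 low pigs: over the 23 other pigs its r went from 0.69 to 0.86 with *ISG15*, from 0.69 to 0.84 with *RSAD2* and from 0.66 to 0.82 with *IFIT3*. Over the 22 pigs without the low *MX1* and *OAS1* pigs, *MX1* and *OAS1* had r = 0.69. Over the 25 pigs without the low *OAS1* pig, *OAS1* and *OAS2* had r = 0.85, and *OAS1* and *IFIT1* had r = 0.47. These values, without the pigs that stood apart, are descriptions with no test.

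**Figure D5:**
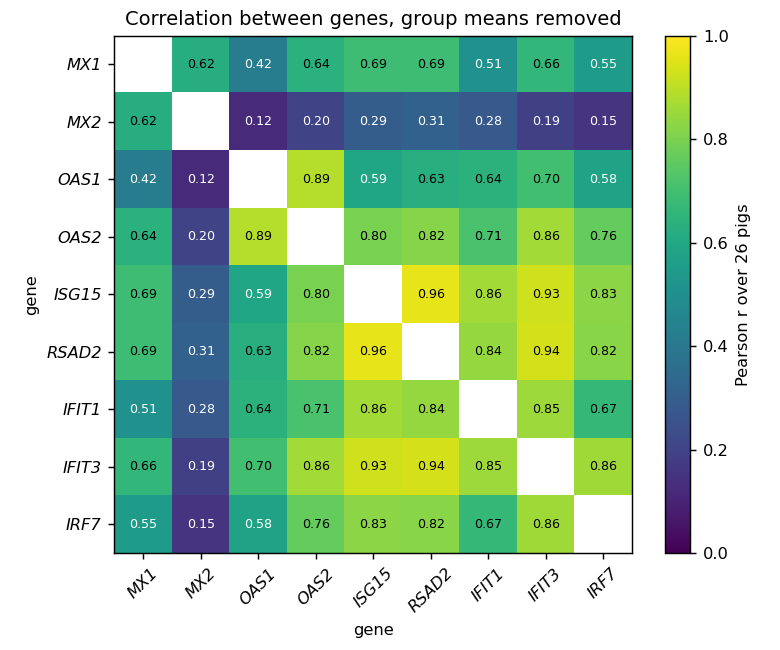
Pearson's r between the log2 levels of each pair of the 9 genes over 26 pigs, group means removed. The values are highest among *ISG15*, *RSAD2*, *IFIT3* and *IFIT1* (0.84 to 0.96), and the *MX2* row, read by its representative probe, is low except with *MX1* (0.62).

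Other genes shared this variation between pigs. Among 10122 other named genes, those most like the mean of the 9 genes were *ZNFX1*, with r = 0.952 and rho = 0.915 over 26 pigs, *IFIH1* (r = 0.922), *RTP4* (r = 0.921), *HERC5* (r = 0.919), *IFI6* (r = 0.902), *DHX58* (r = 0.9), *PARP12* (r = 0.894) and a gene named *ISG12(A)* on the array (r = 0.892). *IFIH1* encodes MDA5, a sensor of double-stranded RNA, and *DHX58* a related helicase, whereas *HERC5* encodes the ligase that attaches ISG15 to proteins. Without the 2 pigs farthest from the median, these 8 correlations ran from 0.823 for *ISG12(A)* to 0.917 for *ZNFX1*. The median r over the 10122 genes was -0.002, 212 genes (2.09%) were above 0.5 and 23 were above 0.8. Of those 23 genes, 18 belonged to 5 lists of the interferon pathway, of which 74 genes were measured.

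By role, the likeness was uneven. Of 38 other interferon-stimulated effectors, 23 had an r above 0.5, as did 6 of 17 sensors and adaptors and 4 of 11 genes of signalling and feedback. Among the latter, the transcription factor gene *IRF9* had an r of 0.876. None of the 5 receptor genes had an r above 0.5 (median -0.042). The same held for the 3 interferon genes measured, *IFNG*, *IFNA1* and *IFN-DELTA-1* (median -0.122). Their mean levels were 5.81 for *IFNG*, 5.93 for *IFNA1* and 7.85 for *IFN-DELTA-1*, against a 10th percentile of 5.87 over all tested probes. With probes as dim as those of *IFNG* and *IFNA1*, a low r does not show that interferon transcripts varied apart from the stimulated genes.

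Across temperatures, 7 of the 74 pathway genes were called (9.46%), 6 higher and 1 lower in HS, and the median difference was 0.06. This share lay below the 12.2% of all probes and the 12.5% of genes, by 1 probe each, called in this comparison. Over all probes, 2310 calls were higher and 3137 lower in HS. *IFNAR2*, which encodes a chain of the type I interferon receptor, rose from 17.95 ± 0.07 in TN to 18.13 ± 0.12 in HS, by 0.19 (SE 0.035, adjusted p = 0.0012). The mean level of its probe was 18.05, against 17.42 for *ADIPOQ*, 8.96 for *IFNAR1* and a 90th percentile of 12.39 over all tested probes. Whether so bright a probe reads only *IFNAR2* was not tested. *TMEM173*, which encodes the adaptor STING, rose by 0.31 (SE 0.08, adjusted p = 0.0126). Among effectors, *TNFSF10*, which encodes the death ligand TRAIL, rose by 0.37 (adjusted p = 0.0238), *ZC3HAV1*, whose product binds viral RNA, rose by 0.24 (adjusted p = 0.0152), *SAMHD1*, which encodes a dNTP hydrolase, rose by 0.24 (adjusted p = 0.0312) and *MOV10*, an RNA helicase gene, rose by 0.19 (adjusted p = 0.0385). *GBP1*, which encodes a guanylate-binding protein, was the gene that fell, from 12.05 ± 0.43 to 11.54 ± 0.39, by 0.50 on the log2 scale (SE 0.144, adjusted p = 0.0248). *IFN-DELTA-1* (0.28, adjusted p = 0.0559), *IRF2* (0.20, adjusted p = 0.0576) and *PML* (0.25, adjusted p = 0.0781) came next and did not pass. With the mean of the 9 genes across pigs, the 7 called genes had an r of 0.566 for *MOV10*, 0.296 for *TNFSF10*, 0.276 for *ZC3HAV1*, 0.143 for *GBP1*, -0.124 for *TMEM173*, -0.206 for *IFNAR2* and -0.312 for *SAMHD1*.

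Across breeds, 6 of the 74 pathway genes were called (8.11%, against 11.3% of all probes and 11.7% of genes by 1 probe each). *XAF1*, which encodes a promoter of apoptosis, was at 8.86 ± 0.58 (SD, n = 8) in Creole, 10.20 ± 0.50 (SD, n = 9) in F1 and 10.61 ± 0.68 (SD, n = 9) in LW, and was higher in LW than in Creole by 1.75 (SE 0.276, adjusted p = 0.000383). *SP100*, a gene of nuclear bodies, was higher in LW by 0.42 (adjusted p = 0.00624) and *ZC3HAV1* by 0.31 (adjusted p = 0.00927), and *TRIM26*, a ubiquitin ligase gene, was lower in LW (-0.45), with 11.47 ± 0.13 in Creole and 11.02 ± 0.28 in LW (adjusted p = 0.00444). *TLR7*, a sensor of single-stranded RNA, was at 6.48 ± 0.23 in Creole, 7.22 ± 0.32 in F1 and 6.88 ± 0.51 in LW (adjusted p = 0.0221 over the 3 breeds). The remaining called gene was *IFNAR2*, read by the same very bright probe as above (adjusted p = 0.0285). *PHF11*, *SAMHD1*, *IFIT2* and *GBP2* followed with adjusted p of 0.0591 to 0.0991 over the 3 breeds. Of these, *PHF11* (0.33, adjusted p = 0.0235) and *SAMHD1* (0.27, adjusted p = 0.0405) passed the threshold for LW minus Creole.

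Markers of other cells were set beside these results. The 12 macrophage markers measured included none called between HS and TN, 11 of 12 being higher in HS with a median difference of 0.155. Within breeds, 11 of 12 were higher in Creole (median 0.535) and in LW (median 0.18), but 8 of 12 were lower in F1 (median -0.175). The mean over the macrophage list ran from -0.50 to 0.31 in TN and from -0.28 to 0.55 in HS. Of 7 red blood cell markers, 2 were called, both lower in HS, with a median of -0.38, and their mean over the list ran from 0.05 to 0.38 in TN and from -0.47 to 0.22 in HS. Of 6 endothelial markers, *CDH5* was called lower (-0.23, adjusted p = 0.0254), 5 of 6 being lower. Of 7 adipocyte markers, *ADIPOQ* was called higher (0.16, adjusted p = 0.0384), with 4 of 7 higher and 2 lower. The shares called were 28.6% for red blood cell, 16.7% for endothelial and 14.3% for adipocyte markers, against 12.2% of all tested probes. The 8 skeletal muscle markers were higher in HS with a median of 0.53 and none called. Their median difference was 1.73 within LW, 0.12 within Creole and -0.18 within F1, where 5 of 8 were lower. The mean over the muscle list ran from -2.07 to 1.28 in TN and from -1.30 to 2.69 in HS. It was highest in the third Creole HS pig. In the remaining lists, 0 of 11 T and NK cell, 0 of 5 B cell, 0 of 5 neutrophil, 0 of 5 plasmacytoid dendritic cell and 0 of 2 keratinocyte markers were called. With the red blood cell score as a covariate the *MX2* difference between HS and TN was -0.76 (adjusted p = 0.318), and with the macrophage score it was -0.63 (adjusted p = 0.0505). Across pigs, group means removed, the mean of the 9 genes had an r of 0.205 with the macrophage list, -0.266 with the list of plasmacytoid dendritic cells, -0.081 with T and NK cells, 0.204 with red blood cells and -0.46 with endothelial cells. This mean had an r of -0.387 with B cells, 0.288 with keratinocytes, -0.209 with neutrophils, 0.198 with skeletal muscle and 0.103 with adipocytes. Its r with the share of probes well above background was 0.33. The part of cell makeup in the differences between pigs was not tested beyond these values.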

How the data were processed

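SCAT RNA of 26 pigs was hybridised on one-colour Agilent arrays with Cy3. The deposited scanner files hold fluorescence intensity per spot, extracted by the authors with Agilent Feature Extraction 10.10.1.1. The deposited series matrix holds the authors' quantile-normalised log2 values and served as an alternative. The authors updated the annotation of the probes against Sscrofa11.1, per the study's methods, and no coordinates were used. Median intensities without background correction were quantile-normalised over non-control spots and log2-transformed, following the study's methods, and non-uniform spots were left out. A probe was tested if 8 or more arrays had it well above background, with limma 3.58.1 (R 4.3.3), with breed and temperature as fixed terms and p-values adjusted by the Benjamini-Hochberg method over 44703 probes (threshold 0.05). The study's random terms for pen, slaughter day, father and mother are not in the labels and were not fitted. The test was checked on simulated data. Probes took their gene from the accession (9661), the symbol (14497), a synonym (195), the description (1) or the symbol of a list (10), and 35941 stayed unnamed. 131 probes whose description names the strain MX1 of another organism were left out.

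The 9 genes and all lists were chosen with earlier results of these data known. Named were all 9 genes, up to 10 pathway genes with the smallest p for HS minus TN and for breed, and the 8 genes most like the mean of the 9 genes. *IRF9*, *IFNG* and *IFNA1* and the cell markers were named after their values were seen. Residuals from group means were used for all correlations, except those between arrays and between probes of the same gene, which used the levels. Alternatives were another scaling, background correction, filters, the series matrix, slide as a block, no breed term, array weights, all probes of a gene, marker scores as covariates, and leaving out each array. Pigs are the replicates, and the number of arrays limits the precision.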

Additional observations from a re-analysis of the deposited data

Results flagged for a closer look

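In 5 of the 45 combinations of a gene and a group of 4 or 5 pigs, the highest or lowest pig lay far from the rest by Dixon's criterion, which chance alone meets in about 1 of 20 groups. *OAS1* in the second LW HS pig was at 6.93, with 10.74 in the nearest pig of its group. *MX1* in the fourth LW TN pig was at 10.44, with 12.78 in the nearest. *MX1* in the second F1 TN pig was at 12.93, with 13.54 in the nearest. In the third LW TN pig, *RSAD2* was at 9.50, with 9.09 in the nearest, and *IFIT1* was at 10.54, with 10.04 in the nearest. The low *MX1* levels of the first F1 HS and the fifth LW HS pig, at 10.76 and 10.69, did not meet the criterion within their own groups. No test of the interaction between breed and temperature passed for any of the 9 genes.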

How the results depend on the processing

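None of the 9 genes was called in any of the 8 comparisons under another scaling, background correction, filter, the series matrix, slide as a block, no breed term, array weights, the mean of all probes of a gene or marker scores as covariates, where these applied. Leaving out 1 array at a time gave 0 to 1 genes called for HS minus TN (*MX2*), any breed difference (*MX2*) and LW minus Creole (*IRF7*), and 0 in the other comparisons. Of 1836 log2 differences of single genes under alternatives, which leave out the tests over the 3 breeds and of the interaction, 1834 kept their side of the threshold and 2 passed it, and 93 uncalled values changed sign, of which 72 were below 0.1 in size.

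Counts over all probes moved more. For HS minus TN, 5447 probes became 3531 without the breed term. For F1 minus mid-parent, 3 became 0 with slide as a block and 43 with array weights. Within Creole, 32 became 0 with no filter, 3 with slide and 98 with weights. Within F1, 188 became 114 with no filter, 4 with slide and 381 with weights. Within LW, 669 became 114 with slide and 1283 with weights. For the interaction, 1 became 0 with slide and 2 with weights. Leaving out 1 array gave 3973 to 6562 for HS minus TN, 3491 to 6439 for any breed, 4823 to 8190 for LW minus Creole, 3 to 51 for F1, 0 to 205 within Creole, 0 to 494 within F1, 112 to 1137 within LW and 1 to 4 for the interaction. For the 36 pairs it gave 26 to 29 called and a median r of 0.57 (without the third LW HS pig) to 0.71, and the other alternatives gave 28 to 32 called. The cause of these shifts was not tested. No paired analysis was possible because the labels give no replicate numbers that the groups share. Groups of 3 to 5 pigs limit the within-breed comparisons.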
